A study of Homo sapiens with 16 samples.

Results

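The cytosolic ribosomal protein genes were followed while TGF-beta drove A549 cells, a line derived from a human lung adenocarcinoma, from an epithelial towards a mesenchymal state. Members were chosen by name: RPL or RPS followed by a number, with the usual A, X or L endings, together with RPLP0, RPLP1, RPLP2 and RPSA. This gave 87 of the 57773 genes in the tables, 53 of the large and 34 of the small ribosomal subunit. RNA was sequenced at 0, 6, 12, 24, 36, 48, 72 and 96 h of TGF-beta, with 2 libraries at each time, or 16 in all. The 0 h libraries, called the start below, served as the reference for all other times. The labels do not give the dose of TGF-beta or the culture conditions, and no untreated cultures of the later times were used here, so TGF-beta and time in culture cannot be told apart. Nor do the labels call the replicates separate cultures. The p-values below therefore speak only of how far these libraries scatter, which may be technical. In bulk RNA such as this, a change in the number of cells of a kind and a change in the RNA of each cell cannot be told apart.

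Ribosomal proteins assemble with ribosomal RNA into the large and the small subunit of the ribosome, and most are needed in equal numbers. Their mRNAs are among the most abundant of growing cells, are short, and mostly start with a C followed by a run of pyrimidines, the 5′ terminal oligopyrimidine (TOP) tract. Through this tract, mTOR and the RNA-binding protein LARP1 are known to control their translation and stability together, while RNA abundance, the quantity measured here, is usually held more even than translation. Some ribosomal proteins have a paralogue (a related gene copy, such as RPL22L1 for RPL22) whose expression varies more between tissues and tumours.

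The start-site sequences of a few members show what the set shares and where paralogues differ, which is why these are printed. Windows around the annotated start came from RefSeq (GRCh38.p14), and 67 of the 87 members had one. Each line gives 40 bases before and 20 bases from the start, 5′ to 3′ on the gene's strand, and capitals mark a tract that begins at the start with C and goes on with at least 4 bases that are each C or T. RPL28 is shown because it had the largest log2 fold change at 48 h, RPL41 and RPS27 because they were the most abundant members, and the rest as parents and paralogues.
RPL28 (chr19:55385892-55385951, plus strand): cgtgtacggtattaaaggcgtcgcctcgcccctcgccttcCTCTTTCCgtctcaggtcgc
RPL41 (chr12:56116593-56116652, plus strand): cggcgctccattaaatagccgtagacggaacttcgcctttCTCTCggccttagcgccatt
RPS27 (chr1:153990722-153990781, plus strand): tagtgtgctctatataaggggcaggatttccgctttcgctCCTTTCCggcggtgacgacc
RPL22 (chr1:6199576-6199635, minus strand): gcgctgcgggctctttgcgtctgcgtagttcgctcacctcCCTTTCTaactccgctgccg
RPL22L1 (chr3:170870176-170870235, minus strand): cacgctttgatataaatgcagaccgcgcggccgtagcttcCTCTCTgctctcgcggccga
RPL26 (chr17:8383174-8383233, minus strand): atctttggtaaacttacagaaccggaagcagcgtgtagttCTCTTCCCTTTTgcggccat
RPL26L1 (chr5:172958689-172958748, plus strand): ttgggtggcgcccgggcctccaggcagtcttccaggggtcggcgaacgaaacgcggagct
RPS27L (chr15:63157458-63157517, minus strand): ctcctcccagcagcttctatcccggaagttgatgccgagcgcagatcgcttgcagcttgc
RPL7L1 (chr6:42879576-42879635, plus strand): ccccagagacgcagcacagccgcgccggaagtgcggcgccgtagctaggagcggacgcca

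A tract at the start was found in 47 of these 67 members (70.1%), against 1404 of all 27305 genes with a window (5.14%). The genes of the mitochondrial ribosome, which is built from other proteins, held it in 6 of 69 (8.70%). When the tract could begin within 5 bases of the start on either side, the counts were 54 of 67 members and 25.2% of all genes. Of 5 paralogue members with a window, RPL22L1 alone held the tract. The search read only the strand of the gene, and a match describes the annotated start, not the start used in these cells.

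TPM give the abundance of a gene as a share of its library, corrected for transcript length, so levels can be set side by side between genes. A set of 6 abundant small RNAs took 42.5% to 64.1% of the deposited TPM, depending on the library. They were dropped and the rest rescaled to 1000000, and all levels below are such rescaled TPM unless said otherwise. The sequencing depth cannot be read from TPM and is unknown, which leaves counting error unstated. Between 29278 and 31187 genes were listed at 0 in 14 libraries, but 36116 in 36 h replicate 2 and 36294 in 48 h replicate 2, so results at these times are also given without them. All 8 epithelial and A549 markers reached 1 TPM, led by KRT18, but their sum was lower late than early. It was 13905 and 17154 TPM at 0 h (replicates 1 and 2), highest at 6 h (18150 and 16919 TPM), then 6816 and 7553 TPM at 48 h, lowest at 72 h (5473 and 7112 TPM) and 6013 and 6875 TPM at 96 h. All libraries of 24 h (9234 and 12781 TPM), 36 h (9040 and 8541 TPM), 48, 72 and 96 h lay below both of 0 h. The members' medians given below were highest at 48, 72 and 96 h, but -0.01 and 0.01 at 24 and 36 h. The part of the marker fall in the members' shift was not tested. Summed fibroblast markers (8 of 10 reached 1 TPM) stayed between 4.15 and 19.2 TPM, endothelial markers (1 of 6) between 0.791 and 18.1 TPM, and leukocyte markers (5 of 8) between 12.7 and 29.04 TPM. None of 5 erythroid markers reached 1 TPM.

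Most members were expressed at a high and similar level. Leaving out the paralogues and members averaging under 10 TPM left 76 standard members, and 73 of these averaged at least 500 TPM over the 16 libraries, with a median of 2063 TPM. RPL41, the smallest ribosomal protein, was highest at 6816 TPM, followed by RPS27 (5378 TPM), RPS19 (4794 TPM), RPL26 (4390 TPM) and RPS24 (4364 TPM). These 5 genes held 14.9% of all member TPM. At the other end, RPL3L, a paralogue known from heart and skeletal muscle, averaged 0.136 TPM, and RPL10L, a paralogue known from testis, 0.0137 TPM. These 2 did not pass the filter of at least 1 TPM in at least 2 libraries, which left 85 members among the 21216 genes tested.

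Some low values concern gene models rather than genes. RPS10L (0.876 TPM) and RPL12L3 (0.524 TPM) are older symbols of processed pseudogenes, now RPS10P5 and RPL12P12 in the reference names. RPS28 averaged 4.59 TPM and RPS26 28.9 TPM, and RPL21 215 TPM, though each encodes a standard component of the ribosome. Pseudogenes named after RPL21 held 74.2% of the TPM of parent and pseudogenes together, so its level is uncertain. Those named after RPL9 held 42.5% and those named after RPS26 12.7%, which leaves these levels uncertain too. The pseudogenes of all members summed to 0.137% to 0.198% of a library.

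Together the members made up 11.6% to 23.4% of a library, with a median of 16.99%. In this and the following pairs of values replicate 1 comes first. The share began at 16.1% and 15.1% (0 h), went on with 17.5% and 17.1% (6 h), 11.6% and 16.5% (12 h) and 14.6% and 16.9% (24 h). Later it was 14.6% and 17.9% (36 h), 23.4% and 19.9% (48 h), 20.1% and 17.3% (72 h) and 16.2% and 21.6% (96 h). Both libraries of 6, 48, 72 and 96 h lay above both of 0 h, by the widest margin at 48 h, whereas the replicates of 12 h and of 96 h lay further apart than those of any other time. The mean was 15.6% ± 0.678 (SD, n = 2) at 0 h and 21.6% ± 2.48 (SD, n = 2) at 48 h. The balance of the subunits moved little: the summed large subunit genes were 1.41 to 1.499 times the summed small subunit genes in every library. With TPM as deposited the share was narrower, 6.69% to 9.05%, and the 6 h libraries (6.91% and 7.47%) no longer lay above both 0 h libraries (7.76% and 7.30%).

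**Figure D1:**
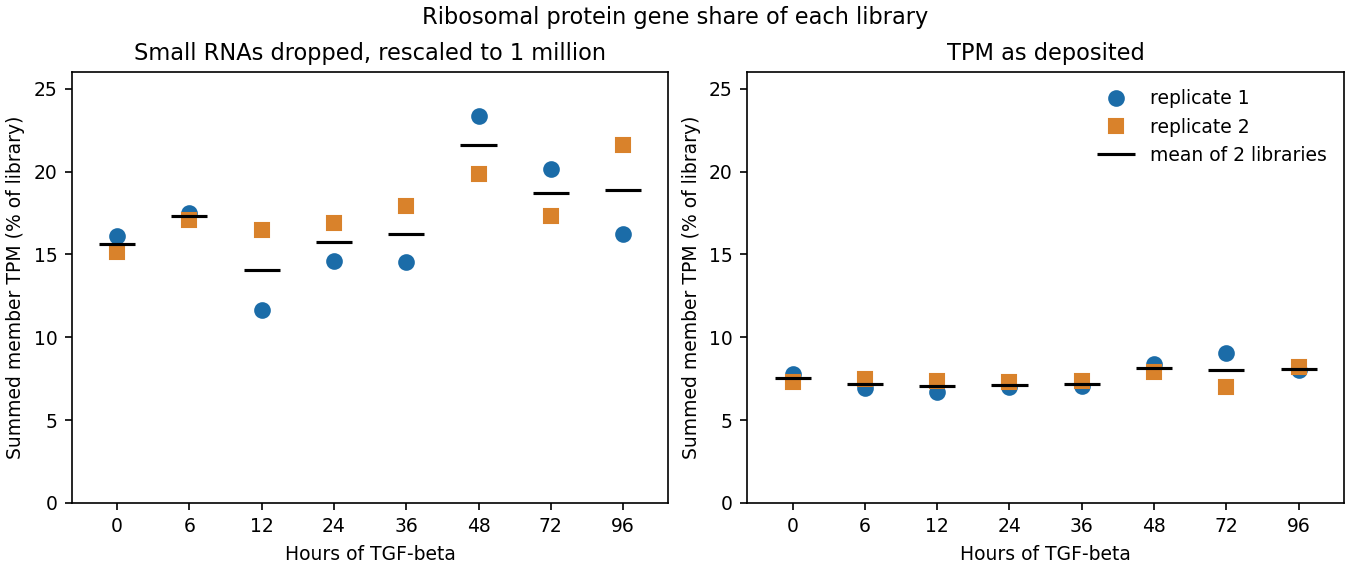
Summed TPM of the 87 members as a percentage of each library (vertical axis, from 0) at each hour of TGF-beta (horizontal axis, times evenly spaced), for rescaled TPM on the left and TPM as deposited on the right. Circles and squares are the 2 replicates and bars their mean; the rescaled share runs from 11.6% (12 h, replicate 1) to 23.4% (48 h, replicate 1), the deposited share from 6.69% to 9.05%.

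The share of the small RNAs moved with the members and is given here for that reason. Across the 16 libraries, which share the cell line and the protocol, the mean log2 level of the standard members had a Pearson r of 0.90 with the small RNA percentage, 0.91 within replicate 1 and 0.90 within replicate 2 (8 libraries each). Without the 2 libraries farthest from its median (12 h and 48 h replicate 1) r was 0.77. Rescaling divides by what the small RNAs leave, so part of this relation is built in. With the same mean log2 level taken from TPM as deposited r was 0.28. For the summed share of all 87 members r was 0.87 on the rescaled and 0.36 on the deposited scale. The percentage of mitochondrially encoded transcripts had r = -0.66 with the members over all 16 libraries, -0.88 within replicate 1 and -0.06 within replicate 2. The part of either in the results below was not tested.

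The comparisons with 0 h asked which members changed during the transition. All share the 0 h libraries, so they are not independent of each other. Differences are given as log2 fold changes, the difference of mean log2(TPM + 1), and a gene was called at a Benjamini-Hochberg adjusted p below 0.05 in limma, a linear model fitted over all 21216 genes. Few members were called, which with 2 libraries a time does not show that the others were unchanged. No member was called at 6 h, where 0.033% of all genes were. The same held for 12, 24, 36, 72 and 96 h, with 0.768%, 1.75%, 2.78%, 2.77% and 2.01% of all genes called, and for the course as a whole, with 2.22%. At 48 h 1 of 85 members, RPL28, was called, where 4.2% of all genes were. At an unadjusted p under 0.05 limma gave 0 members at 6, 12 and 24 h, where 12.5%, 9.78% and 11.9% of all genes passed. It gave 2 of 85 at 36 h (15.7% of all genes), 11 at 48 h (21.2%), 2 at 72 h (15%), 3 at 96 h (13.2%) and 3 over the course (14.6%). In each case the share of members was below that of all genes.

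On the rescaled scale members as a set lay higher at 48 h than at 0 h, while the typical gene lay lower. Their median log2 fold change was 0.41 at 48 h, against -0.22 over all genes tested, and 76 of 85 members were above 0. Medians of replicate 1 and replicate 2, each against the 0 h library of its number, were 0.47 and 0.35. Without 36 h and 48 h replicate 2 the median was 0.52. Both 48 h libraries lay above both 0 h libraries in 63 of 85 members, where 13.8% of all genes did so, and below both in 4, where 39.5% of all genes did so. Large and small subunit genes had similar medians, 0.44 (51 genes) and 0.40 (34 genes). The shift was modest for single genes, since 54 of 85 members had a log2 fold change under 0.5 in size. The distance between the median of members and that of all genes was 0.63, and it was 0.68 after TMM scaling (trimmed mean of M values) and 0.52 with TPM as deposited; on the deposited scale alone the members' median was 0.06.

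Earlier times showed smaller and less even shifts. At 6 h the median was 0.13 against -0.25 for all genes, and 73 members were above 0; with TPM as deposited it was -0.09 and 20 of 83 were above 0, so the direction rests on the scaling. Most related lists, described below, also lay above all genes at 6 h on the rescaled scale. Medians were 0.33 for other short mRNAs, 0.18 for other cytosolic ribosomal protein genes, and 0.09 for mitochondrial ribosomal protein and for ribosome biogenesis genes. Elongation and other TOP mRNA genes had 0.02, snoRNA host genes 0.01 and mTOR, MYC and LARP regulators -0.20. Ribosomal stress and p53 genes (-0.62) and mitochondrially encoded transcripts (-1.11) lay below. Both 6 h libraries exceeded both 0 h libraries in 35 members (11.9% of all genes) and were under both in 4 (46.9%). At 12 h the median was -0.17 against -0.03, with 10 members above 0, but replicate 1 gave -0.42 and replicate 2 0.10, and without 12 h replicate 1 the median was 0.06, so the direction rests on that library. No member had both 12 h libraries above both 0 h libraries (16% of all genes) and 5 had both below (22.3%). At 24 and 36 h medians were -0.01 and 0.01, with replicates on opposite sides of 0 (-0.15 in replicate 1 and 0.13 in replicate 2 at 24 h, -0.15 and 0.22 at 36 h). The sign of both rests on single libraries: at 24 h the median was 0.07 without 24 h replicate 1 and 0.02 without 0 h replicate 1, and at 36 h -0.13 without 36 h replicate 2 and -0.03 without 0 h replicate 2. It also rests on the scaling, with 0.08 at 24 h after TMM scaling and -0.10 at 36 h on deposited TPM. Members higher in both libraries numbered 3 at 24 h (18.9% of all genes) and 5 at 36 h (19.4%), and members lower in both numbered 6 (30.3%) and 5 (27.7%).

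At later times the median was above 0 but smaller, and on the deposited scale close to 0. At 72 h the median was 0.19 against -0.01 for all genes, with 68 of 85 members above 0. With TPM as deposited it was 0.01 against -0.16, with 44 of 83 above 0. Without 72 h replicate 1 it was 0.07 and without 72 h replicate 2 0.30. Both libraries lay above both of 0 h in 40 members (22.7% of all genes) and below in 2 (26.5%). At 96 h the median was 0.22 against -0.10, with 70 members above 0, 29 above in both libraries (13.8%) and 4 below in both (25.4%). With TPM as deposited the 96 h median was 0.07 against -0.20, with 55 of 83 above 0. The 96 h value came from replicate 2: its median was 0.48, whereas that of replicate 1 was -0.03. Without 96 h replicate 2 the median was 0.02 and without 96 h replicate 1 0.44.

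**Figure D2:**
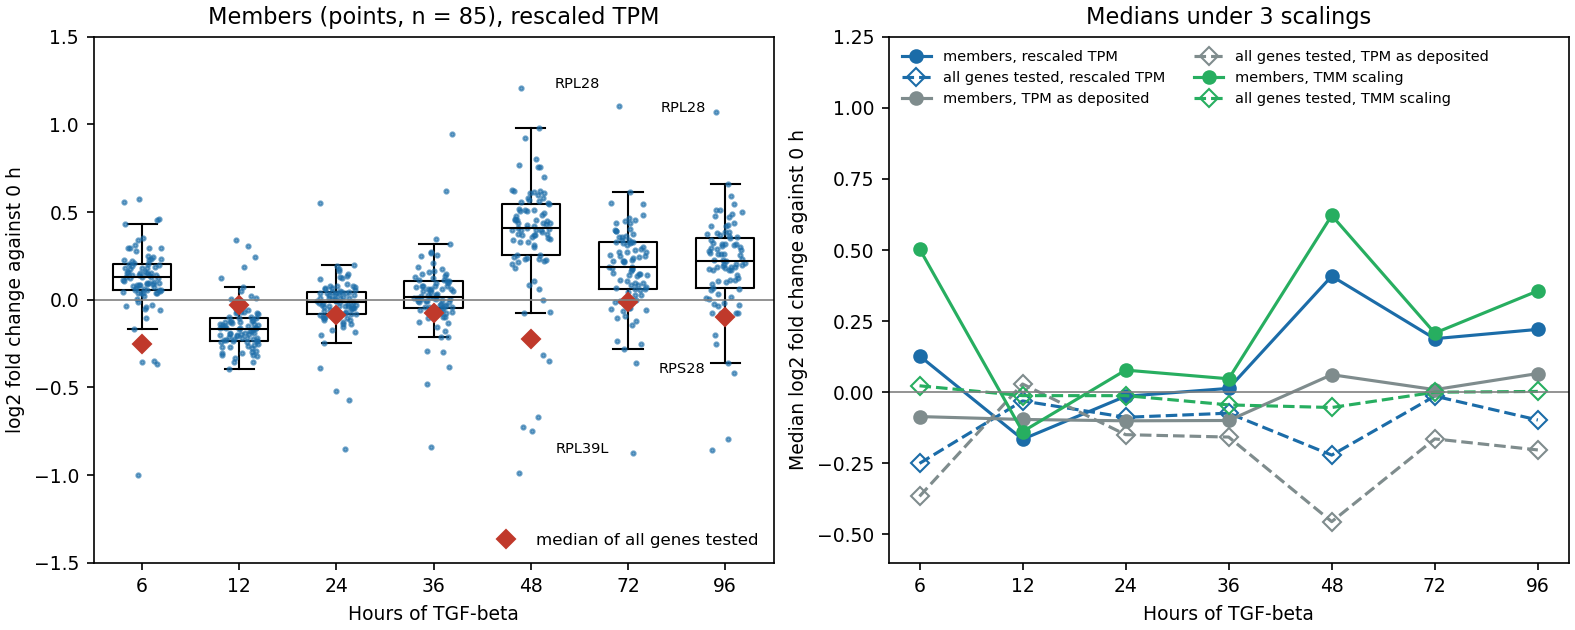
Left, log2 fold change against 0 h of each of the 85 members tested (points) at each hour of TGF-beta (times evenly spaced), with boxes for the quartiles, whiskers to 1.5 times the interquartile range and diamonds for the median of all genes tested. Right, medians of members (filled) and all genes tested (open) under 3 scalings. The members' median is above that of all genes at every time but 12 h, and the widest gap is at 48 h (0.63 rescaled, 0.68 TMM, 0.52 as deposited). A scaling is 1 factor per library and nearly cancels in the gap, so the 3 gaps are alike by construction.

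RPL28, a large subunit protein, stood out by its rise. Its level was 968 and 755 TPM at the start, 1197 and 814 TPM by 6 h, 939.6 and 924 TPM by 12 h, and 1331 and 1182 TPM by 24 h. Later libraries held 1849 and 1463 TPM (36 h), 2419 and 1610.2 TPM (48 h), 2132 and 1592 TPM (72 h) and 1566 and 2067 TPM (96 h). All 8 libraries from 36 h on (1463 to 2419 TPM) lay above all 8 libraries up to 24 h (755 to 1331 TPM), a split chosen after the values were seen. The share of all genes that part in this way was not counted. The log2 fold change was 1.21 at 48 h (SE 0.29, limma adjusted p = 0.0389). At 36, 72 and 96 h it was 0.94, 1.11 and 1.07 with the same SE, which limma, fitted without a replicate term, did not call (adjusted p = 0.116, 0.0686 and 0.0928). Against the mean of the standard members in the same library RPL28 was 0.79 higher at 48 h than at 0 h (log2, SE 0.28), which limma did not call (adjusted p = 0.0993). The 48 h call was lost without 0 h replicate 1 (log2 fold change 1.38, limma adjusted p = 0.0990), without 0 h replicate 2 (1.03, 0.331), without 48 h replicate 1 (0.91, 0.210) and without both late libraries rich in zeros (1.499, 0.0621). It was also lost after TMM scaling (1.42, limma adjusted p = 0.0731), on deposited TPM (0.86, 0.0778) and without the filter (1.21, 0.0774). With the replicate number as a block the 48 h call was kept. In that fit RPL28 was also called at 36, 72 and 96 h and over the course, as given in the last section.

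The acidic stalk of the large subunit, RPLP0, RPLP1 and RPLP2, recruits the elongation factors. RPLP1 had one of the 5 highest log2 fold changes at 96 h, and the other two are given for their role, chosen after their values were seen. RPLP1 went from 1899 and 1752 TPM at the start to 3555 and 2684 TPM (48 h) and 2461 and 3365 TPM (96 h). These are log2 fold changes of 0.76 (SE 0.31, limma adjusted p = 0.186) and 0.66 (limma adjusted p = 0.393). RPLP0 went from 3879 and 3522 TPM at the start to 5565 and 4496 TPM at 48 h, and RPLP2 from 1288 and 1381 TPM to 1917 and 1844 TPM. In all 3 genes both 48 h libraries lay above both 0 h libraries, and none was called. The same held for 63 of 85 members and 13.8% of all genes, so it does not set these 3 apart from other members.

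Further large subunit genes, named by size of change, were not called at any time. RPL39, which lines the exit tunnel of the ribosome, held 2961 and 2829 TPM at the start, 4439.9 and 3557 TPM by 6 h and 5877 and 5125 TPM by 48 h. The log2 fold changes were 0.46 and 0.92, each with an SE of 0.38, and limma gave adjusted p of 0.607 and 0.185. RPL37 held 2105 and 2548 TPM at the start and 3968 and 4122 TPM by 48 h, but its 96 h replicates lay far apart, at 2349 and 4886 TPM. RPL24 and RPL27A were among the 5 highest at 24 h, where their log2 fold changes were 0.17 and 0.19. RPL21 went from 226 and 163 TPM to 355 and 224 TPM by 6 h (log2 fold change 0.56, SE 0.39, limma adjusted p = 0.550), and carries the pseudogene uncertainty above. RPL5 and RPL11, which form a complex with the 5S ribosomal RNA and bind MDM2 when ribosome assembly fails, were looked up for that role after values were seen. Between 0 and 48 h RPL5 went from 1115 and 1017 TPM to 1686 and 1379.9 TPM, RPL11 from 1763 and 1513 TPM to 1998 and 1843 TPM, and neither was called.

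Among small subunit genes, RPS27, which has a zinc finger, had one of the 5 highest log2 fold changes at 6, 24 and 96 h. Its libraries held 3814 and 4176 TPM (0 h), 5519.8 and 5456 TPM (6 h), 8557 and 7253 TPM (48 h), and 4340.2 and 8334 TPM (96 h). Both libraries of 6, 48, 72 and 96 h were above both of 0 h, while at 12 h replicate 1 was at 1971 and replicate 2 at 5170.0 TPM. Limma gave it a log2 fold change of 0.98 at 48 h (SE 0.47, adjusted p = 0.253). RPS29, from 2031 and 1888 TPM to 3359 and 2526 TPM, had a log2 fold change of 0.57 at 6 h. RPS16 had a log2 fold change of 0.43 at 6 h from 1 library: it held 1658 and 1249.9 TPM at the start and 3293 and 1149 TPM then. RPS2 was among the 5 lowest at 6 h (log2 fold change -0.17). RPS6, the substrate of the S6 kinases and looked up for that role, held 2624 and 2551 TPM at the start and 3498 and 3131 TPM by 48 h, and limma did not call the difference (log2 fold change 0.36, adjusted p = 0.432).

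Low and uncertain rows made up most of the lowest log2 fold changes. RPS28 held 6.77 and 4.71 TPM at the start and 4.05 and 3.93 TPM by 96 h. RPS26 held 34.1 and 29.9 TPM at the start and 28.7 and 24.98 TPM by 24 h. RPS10L was between 0 and 2.40 TPM in every library and RPL12L3 between 0 and 2.04 TPM. None of these was called at any time.

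The paralogues differed in pattern from one another. RPL39L, the paralogue of RPL39, held 51.5 and 74.1 TPM (0 h), 52.3 and 78.9 TPM (6 h), 37.5 and 66.6 TPM (12 h) and 36.7 and 49.8 TPM (24 h). From 36 h on its 8 libraries ranged from 28.1 to 39.2 TPM, against 36.7 to 78.9 TPM up to 24 h, so the 2 ranges overlap slightly. Its log2 fold change was -0.84, -0.75, -0.88 and -0.79 at 36, 48, 72 and 96 h with an SE of 0.30. Limma, fitted without a replicate term, called none (adjusted p = 0.189, 0.183, 0.174 and 0.266). With the replicate number as a block RPL39L was called at each of these times, as given in the last section. RPL39L as a percentage of RPL39 went from 1.74% and 2.62% at 0 h to 0.621% and 0.710% at 48 h, and was 0.996% and 0.814% at 96 h.

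RPL22L1, the paralogue of RPL22, was lowest at 48 h. Up to 36 h it held 193 and 143 TPM (0 h), 161 and 203 TPM (6 h), 137 and 174 TPM (12 h), 174 and 135 TPM (24 h), and 151 and 121 TPM (36 h). The 48 h libraries held its 2 lowest values, 97.6 and 103 TPM, and were followed by 128.5 and 130.2 TPM (72 h) and 191 and 187.5 TPM (96 h). The log2 fold change at 48 h was -0.72 (SE 0.21, limma adjusted p = 0.0767). With the replicate number as a block RPL22L1 was called at 48 h, as given in the last section. RPL22 itself went from 514 and 628 TPM to 553 and 831 TPM over the same interval. RPL22L1 as a percentage of RPL22 was 37.5% and 22.8% at 0 h, 17.7% and 12.4% at 48 h, and 42.0% and 29.9% at 96 h. Both genes carry a tract at the start in the sequences above.

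To ask which members moved unlike the set, each library was also centred on the mean log2 level of the standard members and the fit repeated. Over the course no member was called, where 1.27% of all genes were. Shares of all genes on this scale are not like for like, since centring takes the members' shared swings out of the members only. The smallest limma adjusted p-values belonged to RPL39L (0.1998), RPL22L1 (0.241) and RPL28 (0.283), followed by RPS10L and RPL7L1, and 3 members had an unadjusted p under 0.05, where 13.1% of all genes did. At 48 h RPL22L1 was the 1 member called, where 4.83% of all genes were, with a log2 fold change relative to the member mean of -1.14 (SE 0.30, limma adjusted p = 0.0433). That call was lost under 7 alternatives, among them leaving out any 1 library of 0 or 48 h (limma adjusted p from 0.0523 to 0.297). RPL39L had -1.17 at 48 h on this scale (SE 0.34, limma adjusted p = 0.0582).

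RPS27L, RPL26L1 and RPL7L1 are the other paralogues given. Over the 16 libraries RPS27L ranged from 277 to 759 TPM, RPL26L1 from 86.4 to 121 TPM and RPL7L1 from 54.3 to 98.2 TPM. RPS27L, a p53 target gene without a tract in the printed window, held 446 and 508 TPM (0 h), 500.2 and 759 TPM (48 h), and 386 and 356 TPM (96 h). Its 96 h log2 fold change of -0.36 was among the 5 lowest. It equalled 11.7% and 12.2% of RPS27 at 0 h and 8.90% and 4.27% at 96 h. RPL26L1 held 99.9 and 87.9 TPM at the start and 96.9 and 121 TPM by 96 h. It stayed between 1.47% and 3.28% of RPL26. RPL7L1, whose product is known from ribosome assembly, held 87.4 and 77.5 TPM at the start and 80.3 and 59.1 TPM by 96 h. It stayed between 2.04% and 6.38% of RPL7.

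**Figure D3:**
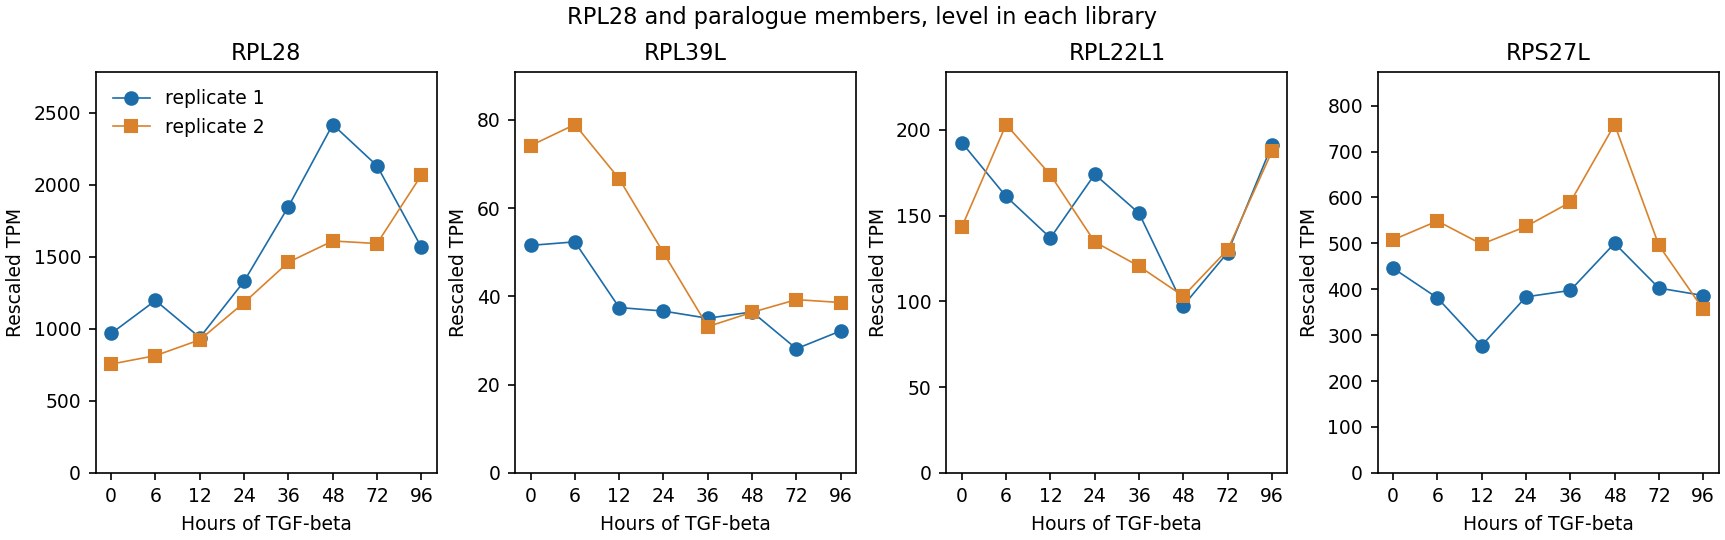
Rescaled TPM (vertical axes, from 0, each panel on its own scale) of RPL28, RPL39L, RPL22L1 and RPS27L at each hour of TGF-beta (times evenly spaced). Circles and squares are replicates 1 and 2, and lines join libraries of the same number only to guide the eye. RPL28 is higher in all 8 libraries from 36 h, a split chosen after the values were seen. RPL39L is between 28.1 and 39.2 TPM in those libraries, and RPL22L1 is lowest at 48 h (97.6 and 103 TPM).

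On the rescaled scale members moved together from library to library. Over the 16 libraries 55 of 76 standard members had a Pearson r of at least 0.8 with the mean log2 level of all standard members, each gene being itself part of that mean, and the median r was 0.88. The share of all genes reaching this r was not counted. Rescaling moves all genes of a library together and can add to such r. The member mean had r = 0.90 with the small RNA percentage, but 0.28 on deposited TPM. The part of rescaling in these r was not tested. RPS15A was closest to the mean (r = 0.99), and 7 standard members were under 0.5, among them RPS19 (0.34) and RPS26 (0.11). The paralogues RPL7L1 (-0.50), RPL22L1 (-0.32) and RPL39L (-0.19) were negative. Relative to the mean, 65 of 76 standard members had an SD of log2 level under 0.25, with a median of 0.14. The 46 standard members with a tract at the start had a median r of 0.89 (0.34 to 0.99) and a median log2 fold change of 0.44 at 48 h, and the 15 with a window but no such tract had 0.87 (0.11 to 0.97) and 0.34, ranges that overlap widely.

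**Figure D4:**
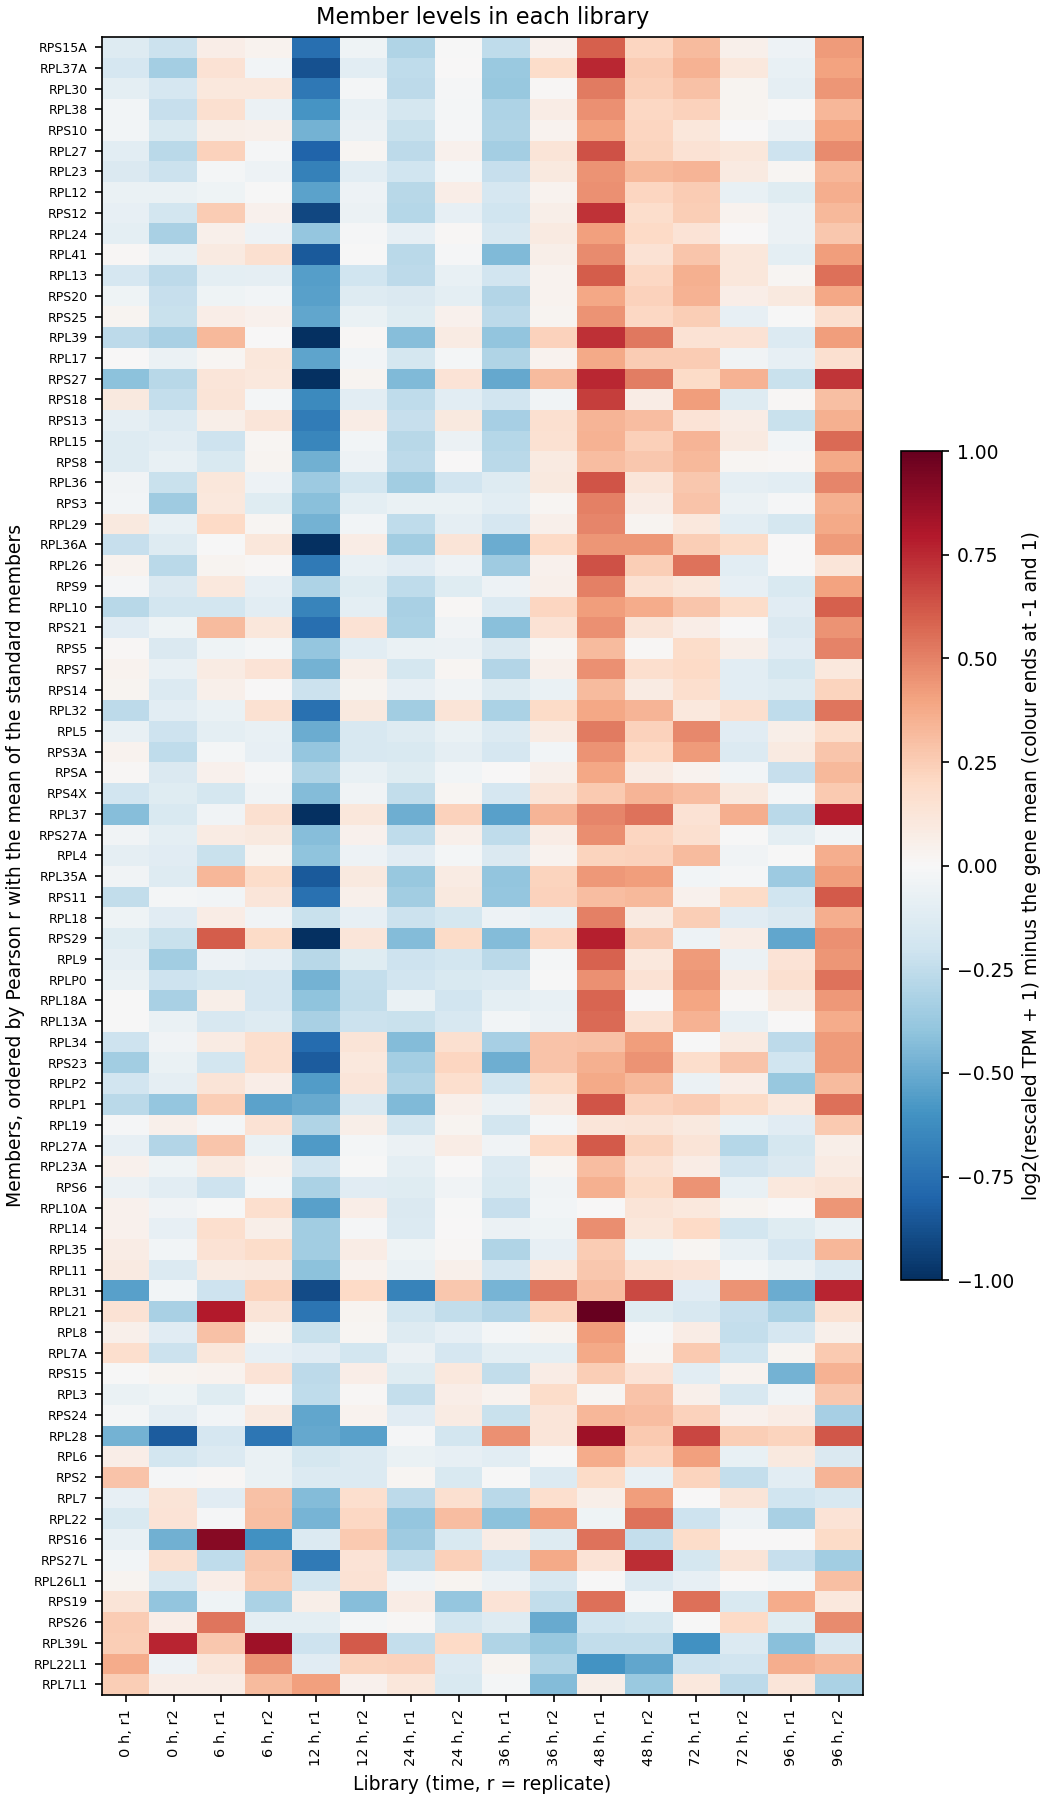
Level of 80 of the 82 members averaging at least 5 TPM (rows, without those not reported by name, ordered by Pearson r with the mean of the standard members) in each of the 16 libraries (columns, by hour and replicate), as log2(rescaled TPM + 1) minus the mean of the gene. Nearly the whole set is low in 12 h replicate 1 and high in 48 h replicate 1 and 96 h replicate 2, while RPL28, RPL39L, RPL22L1 and RPL7L1 near the foot follow other patterns.

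Some members differed between the replicate numbers in 1 direction throughout. Relative to the member mean of the same library, 12 of 85 members were higher in replicate 2 at all 8 times, where 1.89% of all genes were, and 7 were lower at all 8, where 3.7% of all genes were. Centring takes the swings that members share out of the members but not out of other genes. The shares of members and of all genes are therefore not like for like. Differences between the numbers were shared across times over all genes too. RPL31 was the clearest of the first group: its replicates held 1096 and 1572 TPM (0 h), 1983 and 2523 TPM (48 h), and 1137 and 2718 TPM (96 h), with a mean relative difference of 0.68 on the log2 scale. RPL37, RPL22, RPS27, RPS23 and RPL34 followed. RPS19 was lower in replicate 2 at every time, with 5134.5 and 3573 TPM (0 h) and 6850.0 and 4636 TPM (48 h) as examples. What the 2 numbers stand for is not given in the labels.

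The genes most like the member mean among 11747 other genes averaging at least 5 TPM were ranked by Pearson r over the 16 libraries. The closest was SNHG6, a snoRNA host gene (r = 0.98), followed by SCARNA10 (0.95), EEF1B2, a subunit of elongation factor 1 (0.93), SCARNA13 (0.92), and SLC25A3, the mitochondrial phosphate carrier (0.91). FAU (0.91), which encodes a ribosomal protein fused to a ubiquitin-like sequence, was also among the first 10, with POLR2G (0.90) and 2 entries that hold identical values, RPL9P8 and UBE2Q2P6 (0.90). RPL9P8 is named as a pseudogene of the member RPL9, so it may not be separate from the members. EEF1B2 and FAU have a tract at the start and SLC25A3 within 5 bases of it. SNHG6 held 218 and 229 TPM (0 h), 444 and 316 TPM (48 h), and 238 and 359 TPM (96 h).

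Related gene lists give the setting of the members. Of 4 cytosolic ribosomal protein genes outside the naming rule none was called, and their median log2 fold change at 48 h was 0.33. Among 20 translation elongation and other TOP mRNA genes the median at 48 h was 0.27. Of these, 2 were called, both higher, where 4.2% of all genes were called in either direction. TPT1, the translationally controlled tumour protein, went from 2070.0 and 2051 TPM at the start to 4139.7 and 4110.2 TPM at 48 h (log2 fold change 1.001, limma adjusted p = 0.0455). VIM, the intermediate filament protein that marks mesenchymal cells, went from 1148 and 1026 TPM to 2245 and 1999 TPM (0.96, limma adjusted p = 0.0370), and was also called at 24, 36 and 72 h. The 10 snoRNA host genes had a median of 0.57 at 48 h with none called; GAS5 went from 475 and 342 TPM to 1681 and 455 TPM, so replicate 1 carried its change.

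Genes that build cytosolic ribosomes, and those of the mitochondrial ribosome, had medians below 0 at 48 h, when the median of all genes tested was also below 0 (-0.22). The 31 ribosome biogenesis genes had a median of -0.41 at 48 h, and 1 was called, where 4.2% of all genes were. It was BRIX1, an assembly factor of the large subunit, which was lower (52.7 and 52.7 TPM at 0 h, 26.4 and 32.3 TPM at 48 h, limma adjusted p = 0.0359). The 76 mitochondrial ribosomal protein genes had a median of -0.26 at 48 h, close to that of all genes, and -0.29 at 72 h, when all genes had -0.01. At 48 h 1 of them was called, MRPS35, lower (limma adjusted p = 0.0477), where 4.2% of all genes were called. At 72 h 1 was called, MRPL54, lower (limma adjusted p = 0.0334), where 2.77% of all genes were. Of 14 tested regulators from the mTOR, MYC and LARP list none was called and the median at 48 h was -0.40, and of 9 ribosomal stress and p53 genes none was called and the median was 0.10. The 40 other short mRNAs had a median of 0.33 at 6 h and 0.07 at 48 h, and the 13 mitochondrially encoded transcripts had -1.11 and -1.20, with none called in either list. Their part in the members' shift was not tested.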

How the data were processed

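The values deposited by the authors are TPM per gene, 1 table for each replicate. Per the submitters' processing notes, Bowtie and RSEM were used; their versions, the build and the annotation are not stated in the sources at hand. The tables were joined by Ensembl identifier, RN7SL1, RN7SL2, RN7SL3, RN7SK, RMRP and RPPH1 were dropped, and each library was rescaled to 1000000. The filter asked for 1 TPM or more in 2 or more libraries. Values were analysed as log2(TPM + 1), which understates changes of low genes, with limma 3.58.1 in R 4.3.3 (1 mean per time over all 16 libraries, moderation with a mean trend, two-sided, Benjamini-Hochberg over all genes within a comparison); the fit was tested on simulated data. An F test covered the course. Python 3.11.15 made the summaries. Genes named were those called, the 5 largest and smallest changes at 6, 24 and 96 h, the 5 highest and lowest levels, paralogue pairs, the 5 smallest course p-values relative to the member mean, the 10 genes most like that mean and up to 3 per list by change at 96 h. Members and lists were chosen with earlier results of these data known. Alternatives changed scaling, filter, pseudocount, block and libraries. Centring on the member median was added after seeing the data. A few genes are not reported here by name.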

Additional observations from a re-analysis of the deposited data

How the results depend on the processing

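Of 132 counts of members called under the alternatives 119 equalled the reported count. Of 70 medians 9 had the other sign, at 6, 12, 24 and 36 h, and causes were not tested except where fewer libraries or genes entered. The members' median log2 fold change at 6 h was 0.50 with TMM scaling and -0.0856 on deposited TPM. Leaving out 1 library at a time it ran from -0.38 to 0.0631 at 12 h, from -0.117 to 0.0729 at 24 h, from -0.131 to 0.145 at 36 h and from 0.0205 to 0.435 at 96 h. On deposited TPM it was -0.0994 at 36 h and 0.0657 at 96 h, and with TMM 0.0777 at 24 h and 0.36 at 96 h. At 48 h it was 0.62 with TMM, 0.0616 on deposited TPM, 0.52 without 36 h and 48 h replicate 2 together, and 0.30 to 0.52 leaving out 1 library at a time. At 72 h it was 0.00906 on deposited TPM and 0.0702 to 0.295 leaving out 1 library. Members called at 48 h, 1 as reported, numbered 0 with TMM, 0 without a filter, 0 without the 2 late libraries together, 2 on deposited TPM (RPL39L, log2 fold change -1.06, and RPL22L1, -1.06; 2 of 83 members, where 7.6% of all genes were called) and 0 to 1 leaving out 1 library. The labels do not say whether the replicate numbers pair the samples, and the main fit had no replicate term. Over all genes tested, deviations from the time means correlated above 0.1 in 27 of 28 pairs of times (median r 0.34). All 16 of 16 libraries correlated best with a library of their own number. With 2 libraries a time the deviations of a time mirror each other, so these 16 are not independent. This is a hint of pairing from the data and not from the design. With the replicate number as a block, RPL28 and RPL39L were called at 36, 72 and 96 h and over the course (2 members each, where 7.15%, 7.19%, 5.42% and 7.37% of all genes were), these and RPL22L1 at 48 h (3 members, 10.7% of all genes), and RPL28 over the course relative to the member mean (1 member, 4.38%). Limma's adjusted p for RPL28 in the blocked fit was 0.0290, 0.00769, 0.0126 and 0.0176 at 36, 48, 72 and 96 h; for RPL39L it was 0.0301, 0.0398, 0.0247 and 0.0461, and for RPL22L1 at 48 h 0.0416. With TMM and the replicate block together 1 member was called against 0 h, RPL28 at 48 h (limma adjusted p = 0.0334), and 0 at the other times and over the course. RPL28 reversed in sign at 6 h on deposited TPM (-0.00787) and ranged from -0.0710 to 0.485 at 6 h and from -0.0551 to 0.303 at 12 h leaving out 1 library, negative without 6 h replicate 1 and without 0 h replicate 2 respectively. None of these was called. TPM hold no depth, so the precision of low members such as RPS28 cannot be stated, and with 2 libraries a time the spread rests on all times together.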
